A study of Homo sapiens with 2 samples.

Results

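The neutrophil and epithelial chemokines described here are 10 genes, CXCL1, CXCL2, CXCL3, CXCL5, CXCL6, IL8 (now named CXCL8), CCL20, CX3CL1, CXCL16 and CCL28. Every gene probe that the array design assigned to one of these names was used, which gave 15 probes among the 34127 gene probes of the array and 10 of its 25940 gene names. The genes were selected on the knockdown log2 ratios of these same arrays, so that their ratios are given as a description and no test was made on them. MKN74 and MKN45, both established gastric cancer (GC) cell lines, received 50 nM of either SET7/9 siRNA or a negative control siRNA by electroporation, and total RNA was taken 48 hrs later. SET7/9, encoded by SETD7, is a lysine methyltransferase that modifies histone H3 and other proteins. For each line the RNA of the SET7/9 siRNA cells was labelled with Cy5, that of the control siRNA cells with Cy3, and both were hybridised together to 1 two-colour array, so that there were 2 arrays in all, no replicate and no dye swap. The siRNA was compared with its control to find genes whose expression depends on SET7/9, and the sources used here do not say which of the study's SET7/9 siRNAs was hybridised. Because the RNA came from whole cultures, fewer expressing cells and less RNA per cell cannot be told apart.

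Chemokines are small secreted or membrane-bound proteins that direct the movement of leukocytes through G protein-coupled receptors. CXCL1, CXCL2, CXCL3, CXCL5, CXCL6 and IL8 carry the ELR motif and attract neutrophils through CXCR2, and IL8 and CXCL6 also through CXCR1; their genes lie in a cluster on the long arm of chromosome 4. Epithelial cells make them in response to interleukin 1, TNF and bacterial products, and in the stomach IL8 is known as a product of the mucosa infected with Helicobacter pylori. CCL20 attracts cells with CCR6, CCL28 is a mucosal chemokine for CCR10 and CCR3, and CX3CL1 and CXCL16 are made as transmembrane proteins that are shed by the proteases ADAM10 and ADAM17.

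NF-kB binding to a site shortly before the transcription start is a known step in the induction of several of these genes, and the promoter sequences of the chromosome 4 members are therefore shown. RefSeq promoters of GRCh38.p14, each from 250 bases before to 50 bases after the annotated start, were matched by symbol to 8 of the 10 genes; CX3CL1 and CXCL16 had no entry. The 9 letters GGAATTTCC, a form of the NF-kB motif, were searched on both strands, where the other strand reads GGAAATTCC, and no second motif was searched. They were found in 6 of the 8 genes, all on the gene's own strand, and in 162 of all 35116 promoters of the same length (0.461%). The motif was picked because NF-kB is known to act on several of these genes, and some of their promoters are nearly alike, as described below. Nothing is therefore read from the comparison with the other promoters. The windows below run 25 bases to each side of the match, are written 5′ to 3′ on the gene's strand, and have the match in capitals.
CXCL1 (chr4:73869290-73869348, plus strand): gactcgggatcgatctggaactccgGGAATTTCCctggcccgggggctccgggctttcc
CXCL2 (chr4:74099239-74099297, minus strand): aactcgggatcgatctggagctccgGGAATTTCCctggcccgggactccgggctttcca
CXCL3 (chr4:74038734-74038792, minus strand): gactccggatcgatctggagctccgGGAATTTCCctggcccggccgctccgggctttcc
CXCL5 (chr4:73998734-73998792, minus strand): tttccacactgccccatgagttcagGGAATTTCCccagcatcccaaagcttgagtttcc
CXCL6 (chr4:73836564-73836622, plus strand): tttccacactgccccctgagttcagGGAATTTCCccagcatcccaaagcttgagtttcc
IL8 (chr4:73740453-73740511, plus strand): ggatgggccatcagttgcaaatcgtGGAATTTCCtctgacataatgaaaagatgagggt

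The match began 78 bases before the start in CXCL1, 77 in CXCL2, 78 in CXCL3, 90 in CXCL5, 89 in CXCL6 and 91 in IL8. Outside the match, the windows were compared position by position, without gaps, and fell into like groups. CXCL5 and CXCL6 had the same base at 49 of 50 positions, and CXCL1 and CXCL3 at 46 of 50. CXCL2 shared 39 positions with CXCL1 and 38 with CXCL3. Its bases toward the 3′ end are shifted against those of CXCL1 and CXCL3, which lowers these counts, as no gap was allowed. IL8 shared between 9 and 15 with each of the others. These letters were not in the windows of CCL20 and CCL28, where other forms of the NF-kB motif were not searched. A match in a window is a description of its letters and does not show that a factor binds there.

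The likeness of CXCL1, CXCL2 and CXCL3 raises the question of whether a probe can tell them apart, so the member probes were compared with each other without gaps. The most alike pair of different genes was the second probe of CXCL1 and the second probe of CXCL2, which overlap over 37 bases with 32 matching and 8 in the longest unbroken run. Their 60-base sequences are shown 5′ to 3′, with the mismatches of the overlap in capitals and positions on GRCh37.
CXCL1 probe 2 (chr4:74735646-74735705, plus strand): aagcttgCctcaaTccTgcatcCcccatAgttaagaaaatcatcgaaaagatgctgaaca
CXCL2 probe 2 (chr4:74964342-74964401, minus strand): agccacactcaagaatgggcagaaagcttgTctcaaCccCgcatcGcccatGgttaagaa

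Counted from the 5′ end of the CXCL1 probe, with the base of CXCL1 first and that of CXCL2 last, the substitutions are C8T, T14C, T17C, C23G and A29G. Every other pair of probes from different members matched at 26 bases or fewer of their overlap. Against all other gene probes of the array, the closest match to a member probe outside the gene itself was between 31 and 34 bases of 60, at shifts of up to 25 bases. Cross-hybridisation between the members' transcripts was not tested.

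The labels of the arrays were checked on the target of the siRNA. At 1 SETD7 probe the log2 ratio of SET7/9 siRNA to control was -2.03 in MKN74 and -1.95 in MKN45 (error 0.28 each, from the error model of the scanner software and not a replicate SD), while a second probe was at 0.24 and -0.23 (errors 0.22 and 0.21). A signal was taken as present where the software called it well above background, and probes with such a call in 1 channel or both, for no less than 50% of their spots, were kept. These were 20674 probes in MKN74 and 22830 in MKN45. All 5 epithelial marker genes (EPCAM, CDH1, KRT8, KRT18 and KRT19) were present in both lines, with control signals from 915 to 138732 in MKN74, and in MKN45 from 724 to 135233. Of 6 leukocyte marker genes, CD14 and CSF3R were present in the control channel of MKN74, and these and PTPRC in that of MKN45, none with a signal above 49.6. Summed over the 10 leukocyte marker probes, the signal was 137 in Cy3 and 144 in Cy5 in MKN74, and 172 and 211 in MKN45. Of the kept leukocyte marker probes, 1 of 5 in MKN74 (ITGAM) and 3 of 6 in MKN45 (PTPRC, CD3E and ITGAM) were at least 1.5-fold higher. The shares over all kept probes were 3.78% and 4.81%. The higher probes had Cy3 not well above background and were kept through Cy5 alone, which favours a ratio above 0. With both channels well above background, 0 of 2 and 0 of 3 were higher, and a PTPRC probe in MKN45 was at -0.29 (error 0.31). The part of the leukocyte markers in the chemokine values was not tested. Of the fibroblast and endothelial markers, COL1A1 was present in both control channels and PECAM1 in that of MKN45, and DCN in none.

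**Figure D1:**
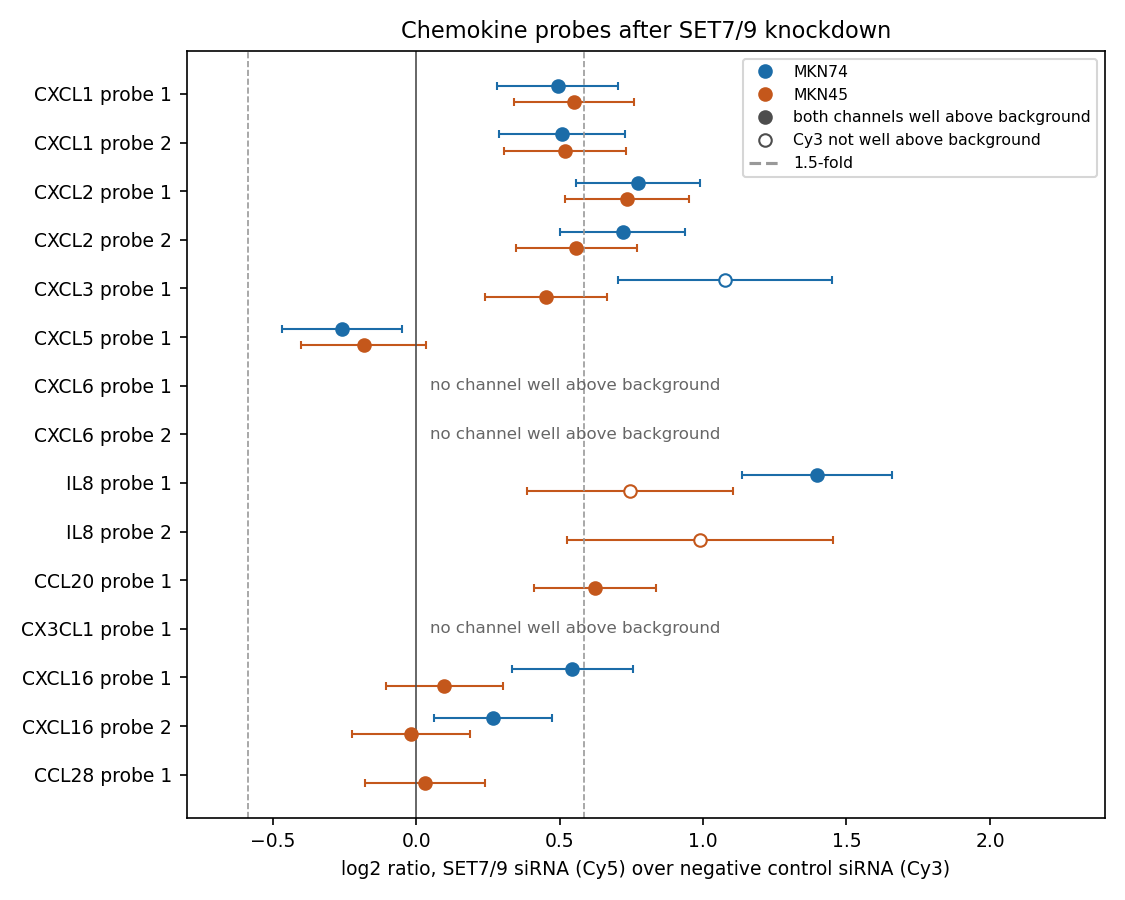
Log2 ratio of SET7/9 siRNA (Cy5) to negative control siRNA (Cy3) for each chemokine probe in MKN74 and MKN45, 1 array each, with the error of the scanner software's error model as bars; open points had Cy3 not well above background, and probes with neither channel well above background have no point. The CXCL1, CXCL2, CXCL3, IL8 and CCL20 points lie between 0.45 and 1.40, and the CXCL5 points are the ones farthest below 0, at -0.26 and -0.18.

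CXCL1, CXCL2 and CXCL3 are the growth-regulated oncogene chemokines. Every CXCL1 and CXCL2 probe in both lines, and the CXCL3 probe in MKN45, had more signal with SET7/9 siRNA than with control siRNA. The first CXCL1 probe, on chromosome 4 of GRCh37 from 74736850 to 74736909, had a processed signal of 420.3 in control cells and 591 in SET7/9 siRNA cells of MKN74, and of 907 and 1328 in MKN45. This gave log2 ratios of 0.49 in MKN74 and of 0.55 in MKN45 (error 0.21 each). At the second probe, where the control signal was 80.7 in MKN74 and 177 in MKN45, the log2 ratio was 0.51 (error 0.22) and 0.52 (error 0.21). All 4 CXCL1 ratios thus lay just below the cutoff of 1.5-fold, which is 0.58 on the log2 scale and is the cutoff the study used.

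CXCL2, a neutrophil attractant also made by macrophages, was above the cutoff in both lines at its first probe. Its first probe, from 74962985 to 74963044 on chromosome 4, read 365 in control cells and 624 in SET7/9 siRNA cells of MKN74, and 201 and 335 in MKN45. The log2 ratios were 0.77 and 0.73 (error 0.22 each), and this was the 1 member probe at least 1.5-fold higher in both lines with both channels well above background throughout. The second probe went from 149.8 to 247 in MKN74 (log2 ratio 0.72, error 0.22) and from 192 to 283 in MKN45 (0.56, error 0.21). In MKN45 the second probe therefore lay below the cutoff, by 0.026, and the first above it.

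CXCL3, the third of these close homologues, had 1 probe, on chromosome 4 from 74902702 to 74902761. In MKN45 its signal was 158 in control cells and 216 with SET7/9 siRNA, a log2 ratio of 0.45 (error 0.21). In MKN74 the control signal of 16.6 was not well above background while the SET7/9 siRNA signal of 35.1 was. The ratio there, 1.08 on the log2 scale (error 0.37), rests on a dim denominator, and with the dim channel set no lower than the dimmest well-above-background signal of its array the difference was at least 1.95-fold. Such bounds hold for the scanner software's background subtraction only. The MKN74 value was kept through the SET7/9 siRNA channel alone, a filter that favours ratios above 0, so nothing is read from its direction.

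IL8, the main human neutrophil attractant of the group, had the largest ratio of all members. Its first probe lies on chromosome 4 from 74609265 to 74609324. It read 41.1 in control cells and 108 in SET7/9 siRNA cells of MKN74, with both signals well above background. The log2 ratio of 1.40 (error 0.26) is a 2.63-fold difference, and 2 of the 18582 probes measured in both channels of that array had a higher ratio. The members were chosen with these ratios known, so nothing is read from this rank. Under normexp and loess the ratio was 0.77.

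In MKN45 the same IL8 probe read 17.1 in control cells, not well above background, and 28.6 with SET7/9 siRNA, a log2 ratio of 0.74 (error 0.36). That control signal already exceeded the dimmest well-above-background signal of its array, so that no lower bound other than the ratio itself was obtained. A second IL8 probe, designed on another transcript and lying from 74607982 to 74608041, had no signal well above background in MKN74 (3.75 and 4.74). In MKN45 it read 10.3 and 20.4, with the control signal not well above background. Its log2 ratio of 0.99 (error 0.46) there came down to at least 1.28-fold once the dim channel was raised. The direction was thus the same at the 3 kept IL8 values, and 1 of them had both channels well above background. The MKN45 values were kept through the SET7/9 siRNA channel alone, a filter that favours ratios above 0, so nothing is read from their direction.

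CXCL5 and CXCL6 are the other neutrophil chemokines of the cluster, and CXCL5 was the member with a log2 ratio below 0 in both lines. Its probe, on chromosome 4 from 74861898 to 74861957, went from 163 in control cells to 137 with SET7/9 siRNA in MKN74, and in MKN45 from 80.3 to 70.7. The log2 ratios were -0.26 (error 0.21) and -0.18 (error 0.22), both short of a 1.5-fold difference, and the MKN45 value was smaller than its error. CXCL6 had no signal well above background at either of its probes in any of the 4 channels, the highest reading being 3.80 in control MKN74 cells. The CXCL5 window above holds the same motif letters as those of CXCL1, CXCL2, CXCL3 and IL8, and its bases are nearly those of CXCL6.

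**Figure D2:**
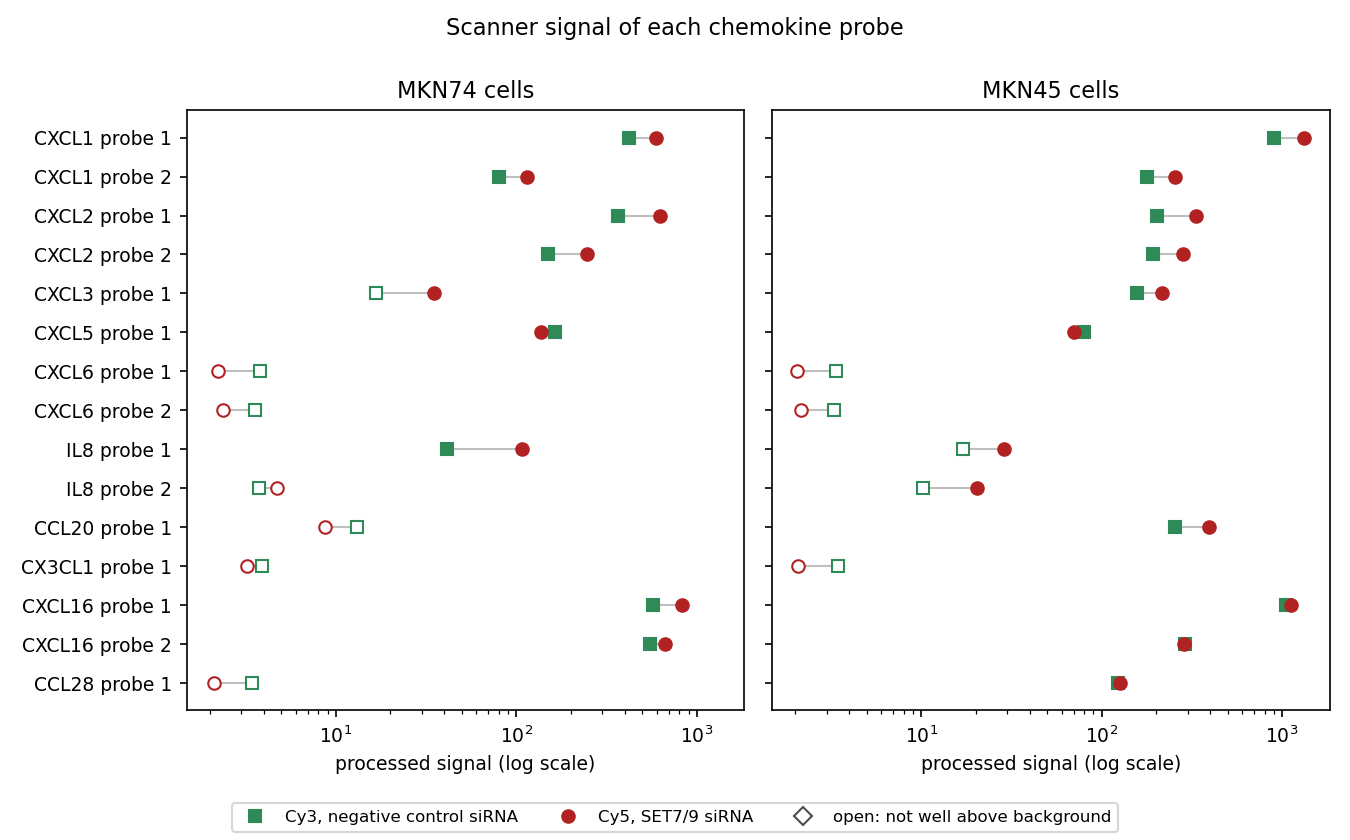
Processed scanner signal, on a log axis, of each chemokine probe in control siRNA cells (Cy3, squares) and SET7/9 siRNA cells (Cy5, circles) of MKN74 and MKN45, 1 array each; open symbols were not well above background. CXCL1, CXCL2, CXCL5 and CXCL16 were well above background in all 4 channels, CCL20 and CCL28 in MKN45 but not in MKN74, and CXCL6 and CX3CL1 in none.

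CCL20, which attracts CCR6-bearing lymphocytes and dendritic cells, was present in MKN45 but not in MKN74. Its probe spans 737 bases of chromosome 2, from 228681100 to 228681836, and so covers more than 1 exon. In MKN45 the signal was 256 in control cells and 394 with SET7/9 siRNA, a log2 ratio of 0.62 (error 0.21). In MKN74 the signals of 13.1 and 8.66 were not well above background, and no ratio was taken from them. The CCL20 value in MKN45 was the nearest member value above the cutoff and the CXCL2 value of 0.56 in the same line the nearest below it.

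CCL28, the ligand of CCR10 and CCR3 at mucosal surfaces, was likewise present in MKN45 only, at a probe on chromosome 5 from 43381925 to 43381984. The MKN45 signals were 124 and 127, a log2 ratio of 0.031 (error 0.21). Both MKN74 signals, 3.42 and 2.12, were not well above background. SET7/9 siRNA and control cells of MKN45 therefore differed by less than the error of the spot for CCL28, in contrast to the value for CCL20.

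CX3CL1, the transmembrane ligand of CX3CR1, was not well above background in any of the 4 channels, at a probe on chromosome 16 from 57418025 to 57418084 that read between 2.08 and 3.89. CXCL16, the other transmembrane member and the ligand of CXCR6, was among the brightest. Its first probe, designed on the transcript NM_001100812 and lying on chromosome 17 from 4637807 to 4637866, read 569 and 829 in MKN74 and 1051 and 1126 in MKN45. The log2 ratios were 0.54 (error 0.21) and 0.099 (error 0.20). The second CXCL16 probe, designed on NM_022059 and lying from 4637560 to 4637619, read 553 and 666 in MKN74 and 289 and 285 in MKN45. Its log2 ratios of 0.27 and -0.016 (error 0.21 each) lay on opposite sides of 0. At both CXCL16 probes the MKN74 ratio was thus the higher one.

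Over the members as a whole, 6 of the 10 genes (9 of 15 probes) were kept in MKN74 and 8 (12 probes) in MKN45. The log2 ratio was above 0 at 8 of the 9 probes in MKN74 and at 10 of the 12 in MKN45, where 51.2% and 52.9% of all kept probes were above 0. Of these, 1 in MKN74 and 2 in MKN45 were kept through Cy5 alone, which favours a ratio above 0. Among probes with both channels well above background, 7 of 8 and 8 of 10 were above 0, against 48.4% and 49.7% of all such probes. Of the kept probes, 4 in MKN74 were at least 1.5-fold higher with SET7/9 siRNA, against 3.78% of all kept probes, and 4 in MKN45, against 4.81%. None was at least 1.5-fold lower, against 1.76% and 1.97% of all kept probes. Both lines passed at 2 of the 9 member probes kept on both arrays, against 0.75% of the 19595 probes kept on both. With both channels well above background, the counts were 3 of 8 probes in MKN74 (0.64% of all such probes) and 2 of 10 in MKN45 (0.814%), and 1 of 7 in both lines (0.0518%). None of these was lower by that much, against 1.45% and 1.62% of all such probes. Since the genes were chosen with these ratios in view, nothing is read from the comparison with the other probes. With the probes of a gene averaged, the median log2 ratio was 0.62 in MKN74 (6 genes) and 0.49 in MKN45 (8 genes), where that of all genes was 0.0065 and 0.016. With a signal in both channels required, it was 0.50 over 5 genes and 0.45 over 7.

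Genes with several probes give a view of the probe's own part in a ratio. The probes of CXCL1 differed by 0.015 in MKN74 and 0.031 in MKN45 on the log2 scale, those of CXCL2 by 0.054 and 0.18, and those of CXCL16 by 0.28 and 0.12. Over all genes with exactly 2 probes measured in both channels, the median difference was 0.14 in MKN74 (2752 genes) and 0.15 in MKN45 (3005 genes). Each member probe was printed once per array. For other probes printed several times, the pooled SD of the log2 ratio between spots was 0.16 in MKN74 and 0.18 in MKN45 at control signals from 30 to 100, and 0.059 and 0.055 at signals from 300 to 1500. This spread covers the variation within an array and none between cultures.

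The ratios were computed a second way, with normexp background correction and loess normalization in place of the scanner software's steps. Which of the changed steps moved a value was not tested. All 21 kept member ratios had the same sign as before and 3 of them were at least 1.5-fold higher, against 8. Those 3 were IL8 in MKN74 at 0.77, the first CXCL2 probe in MKN74 at 0.62 and the first CXCL1 probe in MKN45 at 0.59. The same IL8 probe fell to 0.19 and the second IL8 probe to 0.053 in MKN45, and CXCL3 to 0.28 in MKN74. The ratios of CXCL1 and CXCL2 stayed between 0.31 and 0.62.

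**Figure D3:**
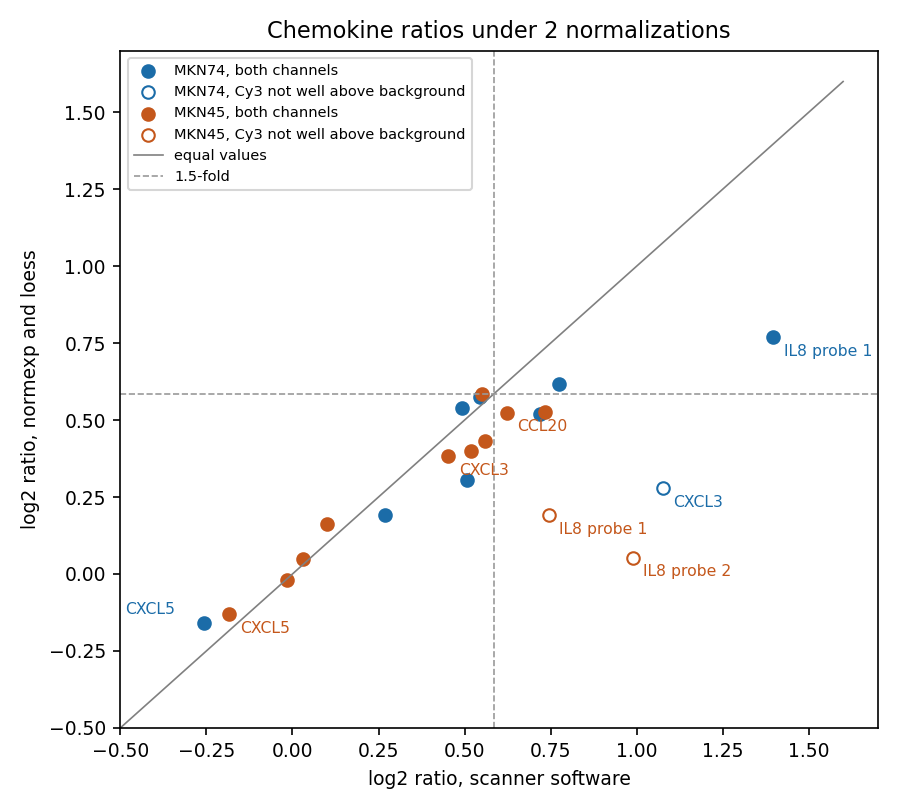
Log2 ratio of each kept chemokine probe after normexp background correction and loess normalization, plotted against the log2 ratio of the scanner software, with the line of equal values and the 1.5-fold cutoff dashed on both axes. The 3 open points, with Cy3 not well above background, drop from between 0.74 and 1.08 to between 0.053 and 0.28.

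The lines were next compared for the difference in response. At the 7 member probes well above background in all 4 channels, the log2 ratio in MKN45 minus that in MKN74 lay between -0.45 and 0.075. At 6 of them it was smaller than the combined error of both spots. The exception was the first CXCL16 probe, at -0.45 with a combined error of 0.29. These errors are those of single spots, and with 1 array per line a difference between the lines cannot be told apart from a difference between cultures.

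The control siRNA cells gave the level of each chemokine in the lines themselves. Cy3 signals were scaled between arrays (Aquantile), the same probe was compared on both arrays, and a dim side was raised to the lowest signal well above background. Of the 11 member probes with Cy3 well above background on at least 1 array, 6 were at least 1.5-fold higher in MKN45, against 26.7% of all 21610 such probes, and 4 at least 1.5-fold higher in MKN74, against 31.9%. CCL20, CXCL3 and CCL28 were far apart, with at least 12.4-fold, 7.14-fold and 5.34-fold more signal in control MKN45 than in control MKN74 cells under this scaling. Normexp with loess and Aquantile, which adds an offset, gave smaller log2 differences of 2.12, 1.31 and 1.59. CXCL1 was 2.57-fold and 2.10-fold higher in MKN45 at its first and second probe. CXCL5 was 2.31-fold higher in control MKN74 cells. The first IL8 probe was also higher there, by 3.42-fold against a MKN45 signal not well above background; its log2 difference of -1.77 was -1.08 under 75th percentile scaling and -0.56 under normexp with loess and Aquantile.

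CXCL2 and CXCL16 had no single order between the lines. The first CXCL2 probe was 1.63-fold higher in MKN74, and the second 1.32-fold higher in MKN45, a value that turned to -0.12 on the log2 scale under median scaling. The first CXCL16 probe was 2.25-fold higher in MKN45 and the second 1.68-fold higher in MKN74. Apart from the second CXCL2 probe, the 11 differences kept their sign under 75th percentile scaling, median scaling, and normexp with loess and Aquantile. Median scaling moved the median difference of all 21610 probes from -0.031 to -0.52, and 75th percentile scaling moved it to 0.15.

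**Figure D4:**
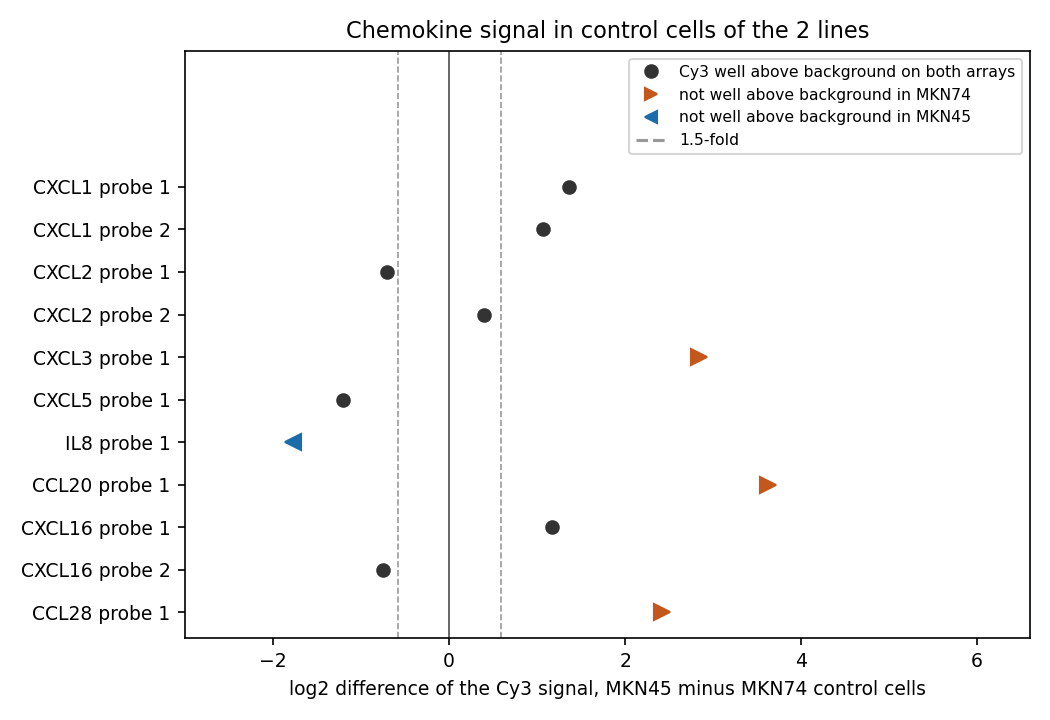
Log2 difference of the Cy3 signal between control siRNA cells of MKN45 and MKN74, after scaling between arrays, for the 11 chemokine probes with a signal well above background on at least 1 array; circles are well above background on both arrays, and triangles have 1 array not well above background, set no lower than its dimmest well-above-background signal. CCL20, CXCL3 and CCL28 lie farthest to the MKN45 side and IL8 and CXCL5 to the MKN74 side, while the probes of CXCL2 and of CXCL16 fall on both sides of 0.

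Among the other chemokines, 34 of 38 listed genes were on the array, with 44 probes. In MKN74, 11 of these probes were kept, 2 at least 1.5-fold higher and 1 lower, and in MKN45 14 were kept, 2 higher and none lower, beside shares over all kept probes of 3.78% and 1.76% in MKN74 and 4.81% and 1.97% in MKN45. CCL5, a T cell chemokine, was the one with both channels well above background, at -0.93 (error 0.27) in MKN74. Under normexp and loess CCL5 was at -0.28 there, short of a 1.5-fold difference. CCL3L3 and CCL4 in MKN74 and CCL19 in MKN45 were dim in Cy3 and reached no lower bound above 1-fold. Brighter probes of CCL3L3 and of CCL19 were at 0.23 and -0.15. CXCL11 in MKN45, also dim in Cy3, was at least 1.12-fold higher. The higher values of these genes were kept through Cy5 alone, which favours ratios above 0. The median log2 ratio over genes was 0.076 over 10 genes in MKN74 and 0.17 over 12 in MKN45, and 0.048 over 7 and 0.037 over 9 with a signal in both channels.

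The receptors of the members were mostly not well above background in these cells. This held for CXCR1, CXCR2, CXCR6, CX3CR1 and CCR3 in both lines. CCR6, the receptor of CCL20, was present in both with a log2 ratio of -0.32 in MKN74 and -0.035 in MKN45 (errors 0.22 and 0.21). CCR10, the receptor of CCL28, was at -0.40 and -0.50 (errors 0.21 and 0.23). Of the 26 probes of 23 receptor genes, 6 were kept in MKN74 and none of these passed 1.5-fold in either direction. In MKN45, 9 were kept, of which CXCR4 (0.61, error 0.26, over 10 spots) and CXCR7 (at least 1.19-fold) were higher. CXCR7 had Cy3 not well above background and was kept through Cy5 alone, which favours a ratio above 0. Under normexp and loess CXCR4 was at 0.27, below the cutoff. Of all kept probes, 3.78% were higher and 1.76% lower in MKN74, and 4.81% and 1.97% in MKN45. The median over receptor genes was -0.25 in MKN74 and 0.13 in MKN45.

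ADAM10 and ADAM17, the proteases that release CXCL16 and CX3CL1, were present in both lines. The ADAM10 probes were at 0.34 and 0.19 in MKN74 and at 0.43 and 0.20 in MKN45, and the ADAM17 probe at -0.068 and 0.085, each with an error of 0.20 to 0.21. With RHBDF2, a partner of ADAM17, and DPP4, a peptidase that trims chemokines, none of the 5 probes passed 1.5-fold in either line, and the medians over the 4 genes were 0.020 and 0.20. Of 16 probes of 9 factors that bind the AU-rich elements of chemokine mRNAs, TIAL1 passed in MKN74 at 1 probe that was dim in Cy3 and reached no lower bound above 1-fold, while its other probe was at -0.0082. None of the 16 passed in MKN45, and the medians were 0.0027 and 0.094. The shares over all kept probes were 3.78% higher and 1.76% lower in MKN74, and 4.81% and 1.97% in MKN45.

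Signals known to act upstream of these chemokines, 25 genes of the interleukin 1, TNF, interleukin 17, Toll-like receptor and NF-kB pathways, had medians of 0.029 in MKN74 (21 genes) and 0.073 in MKN45 (20 genes). In MKN74, 3 of 27 kept probes were at least 1.5-fold higher and 2 lower, and in MKN45 2 of 25 were higher and none lower. Over all kept probes, 3.78% were higher and 1.76% lower in MKN74, and 4.81% and 1.97% in MKN45. With both channels well above background, 1 of 23 was higher and 2 lower in MKN74, and 1 of 24 higher and none lower in MKN45. Of all such probes, 0.64% and 0.814% were higher and 1.45% and 1.62% lower. IL1A, an inducer of IL8 in epithelial cells, went from 44.3 to 81.0 in MKN74 (log2 ratio 0.88, error 0.24, over 10 spots) and was not well above background in MKN45. TNF had Cy3 not well above background in both lines and was at least 1.31-fold higher in MKN74 and at least 1.78-fold higher in MKN45. IL17C, also dim in Cy3, was at least 1.20-fold higher in MKN74. These bounds hold for the scanner software's background subtraction only. The values were kept through Cy5 alone, a filter that favours ratios above 0, so nothing is read from their direction. Under normexp and loess TNF was at 0.17 in MKN74 and 0.26 in MKN45, and IL17C at 0.22 in MKN74. TNFAIP3, an inhibitor of NF-kB signalling, was at 0.60 (error 0.27) in MKN45 and just below the cutoff in MKN74, at 0.55 (error 0.23). The lower probes in MKN74 were that of TLR3 at -0.68 (error 0.22) and the dimmest of 3 IL17RA probes at -0.59 (error 0.28). The brighter IL17RA probes were at 0.35 and -0.097 (errors 0.21 and 0.20). Under normexp and loess, IL1A was at 0.45 in MKN74, and TNFAIP3 at 0.32 in MKN74 and 0.20 in MKN45. In MKN74 TLR3 was then at -0.38 and the dimmest IL17RA probe at -0.20. None of these values passed 1.5-fold.

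The genes whose pair of ratios lay nearest to that of CXCL2, averaged over its probes at 0.75 in MKN74 and 0.65 in MKN45, were IFFO1 (0.68 and 0.65), CEP97 (0.65 and 0.55) and KRTAP4-11 (0.72 and 0.49). They were 0.064, 0.14 and 0.16 away by Euclidean distance over the 2 ratios, among 12761 genes whose kept probes were all measured in both channels on both arrays. With 1 array per line, the likeness rests on 2 values per gene.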

How the data were processed

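Total RNA of MKN74 and MKN45 cells was measured on 1 two-colour Agilent array per line, both on the same slide and scanned together. The authors deposited Agilent Feature Extraction 10.7.3.1 output (version per the labels), with linear spot intensity in each channel, the Cy5 to Cy3 log10 ratio, its error and the error model's p-value, after background subtraction, surrogate values for dim signals, and linear and LOWESS dye normalization. A rounded log2 ratio table that the authors deposited beside it was used as an alternative. Of its values, 99.6% in MKN74 and 99.4% in MKN45 were within 0.01 of the scanner ratios.

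Here log10 ratios were converted to log2, control spots and outlier spots (549 and 534 of genes, none of a member) were left out, no gene spot was saturated, and spots of a probe were averaged. Cy3 was well above background for 54.7% of gene probes in MKN74 and 59.7% in MKN45, and Cy5 for 60.4% and 66.6%. Bounds and control levels used Aquantile scaling (limma 3.58.1, R 4.3.3) of the processed signals, which keeps any dye bias, as dyes were not swapped. The alternative was normexp (offset 50) with loess. Probe coordinates are those of the array design, on GRCh37; exon and UTR positions were not annotated here. Other steps used Python 3.11.15, and counting was tested on simulated data. The number of arrays limits the precision of every value.

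The members and lists were chosen with earlier results of these data known. Named genes are all members, SETD7, members of other lists past 1.5-fold where 5 or fewer passed, and the 3 genes nearest to CXCL2. CCR3, CCR6, CCR10, CX3CR1, CXCR1, CXCR2, CXCR6, ADAM10 and ADAM17 were added as the members' receptors and proteases after their values were seen.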

Additional observations from a re-analysis of the deposited data

Results flagged for a closer look

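The second CXCL16 probe had log2 ratios on opposite sides of 0 in the 2 lines, at 0.27 in MKN74 and -0.016 in MKN45 (error 0.21 each), a difference of -0.28 with a combined error of 0.29. With 1 array per line the difference was not tested. The first CXCL16 probe differed in the same direction, by -0.45, with both ratios above 0.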

How the results depend on the processing

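Under normexp and loess, 2 member probes in MKN74, 1 in MKN45 and 0 in both lines were at least 1.5-fold higher, with gene medians of 0.40 and 0.25. Over all kept probes the counts fell too, from 781 to 43 in MKN74, from 1097 to 27 in MKN45 and from 147 to 1 in both. An added offset draws dim ratios toward 0 by construction, but its part in the fall was not tested. Requiring both channels well above background left 2 in MKN45 and 1 in both, as did the deposited log2 table (2 and 1) and an error model p under 0.01 (2 and 1). A 2-fold cutoff left 2, 0 and 0. Without a filter, which adds the undetected members, the medians were 0.20 and 0.25. Median centring and keeping outlier spots left these counts within 1.5 times, and none of the 21 member ratios changed sign under the alternatives that gave a value. Median centring put 10 of them past the cutoff, against 8. Between control cells, 10 member probes were at least 1.5-fold apart, where 26.7% of all 21610 such probes were higher in MKN45 and 31.9% in MKN74. With Cy3 well above background on both arrays, 6 of 7 were apart. Of these 3 were higher in MKN45, against 4164 of 17414 such probes. With normexp, loess and Aquantile, an alternative chosen after seeing the data, 8 were apart. Of these 6 were higher in MKN45, against 4678 of all 21610 probes. No paired analysis was possible because each cell line had 1 array, and leaving out an array leaves no value for its line.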
